A study of Mus musculus with 36 samples.

Results

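The genes of the heme synthesis pathway were followed in the blood of mice 7 days after irradiation. The members were the 6 enzymes Alas2, Alad, Uros, Urod, Cpox and Ppox, the last enzyme Fech, and the mitochondrial carriers Slc25a37 and Slc25a38. They were chosen as array probes annotated with one of these gene names, which gave 12 probes for 9 genes, out of 39429 probes for 31093 gene names on the array. All 12 probes passed the background and fold filters, and where a gene had several probes, the one with the highest signal stood for it among the 15077 genes tested. Blood RNA of 36 male C57BL/6J mice, aged 8–10 weeks at irradiation, was hybridized to 1 single-colour Agilent array per mouse, with 6 mice in each of 6 groups. The controls were sham-irradiated, the x-ray group received 3 Gy x-rays, and 3 groups received 3 Gy of a mixed field in which neutrons made up 5, 15 or 25% of the dose. The last group, which the labels call 100% neutron, received 0.75 Gy from a neutron source that also delivers some photons, with no x-rays added, so that both dose and radiation quality set it apart from the groups at 3 Gy. All groups shared strain, sex, cardiac puncture, collection into a stabilizing lysis solution and a step that reduced globin RNA. The comparisons asked how each exposure differed from controls, how the exposures with neutrons differed from x-rays, and how 0.75 Gy of neutrons alone differed from the 25% mixed field.

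Heme is built by a chain of enzymes that begins and ends in the mitochondrion. Alas2 is the erythroid form of the enzyme that starts the pathway from glycine and succinyl-CoA, and Slc25a38 is the carrier thought to supply it with glycine. Alad, Uros and Urod act in the cytosol, and Cpox, Ppox and Fech return the pathway to the mitochondrion, where Fech inserts iron that Slc25a37 (mitoferrin) imports. Red cell precursors make most of the heme of the body, for hemoglobin, and reticulocytes still carry the RNA of the pathway into blood. Alad and Uros are known to use separate housekeeping and erythroid promoters. In whole blood, fewer cells of a type and less RNA per cell cannot be told apart.

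Probes of 1 gene that read different stretches of its transcripts did not always move together, so the first 30 of the 60 bases of each probe of the genes with a pair are shown, 5′ to 3′, as the scanner files give them. In the array annotation (mm9) the Alad probes lie at chr4:62172559-62172618 and chr4:62169463-62169522 on the minus strand, the Uros probes at chr7:140878069-140878128 and chr7:140883817-140883876 on the minus strand, and the Slc25a37 probes at chr14:69860020-69860079 and chr14:69902797-69902856 on the minus strand. Exon and UTR placement was not analysed here.
Alad first probe: gatggacggacgagttgaggccatcaaggc
Alad second probe: taaagatttgggcgtttggtttagttttct
Uros first probe: ctgatgctgacctgataagaatgataaatc
Uros second probe: ttcgctcttcatgttggtaccaatatttac
Slc25a37 first probe: taagagtggcctagtgttgctttccgaatg
Slc25a37 second probe: acatgacagcgggagcgatggccgggattc

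Promoters are shown as a description of sequence, with motifs of the GATA factors, of which GATA1 is known from erythroid genes. Its part in the changes of the members was not tested. The RefSeq promoter table (GRCm38.p6) held 9 starts of 7 members, and the 250 bases before each start were searched on both strands for 4 GATA motifs, which can overlap one another: AGATAA or TGATAA, and the forms AGATAG or TGATAG. Of the 9 starts 3 held at least 1 motif, Alas2, the second start of Uros and Cpox, while 26.5% of all 32851 starts in the table held one. The sequences of these 3 and of the first start of Uros, which held none, read 5′ to 3′ on the strand of the gene, with motifs in capitals. They lie at chrX:150547167-150547416 (plus strand, Alas2), chr7:133709296-133709545 and chr7:133702501-133702750 (minus strand, Uros), and chr16:58669958-58670207 (plus strand, Cpox). A match is a description of the letters and not evidence of binding. The starts of Alad, Urod, Ppox and Slc25a38 held no motif, and Fech and Slc25a37 had no entry.
Alas2: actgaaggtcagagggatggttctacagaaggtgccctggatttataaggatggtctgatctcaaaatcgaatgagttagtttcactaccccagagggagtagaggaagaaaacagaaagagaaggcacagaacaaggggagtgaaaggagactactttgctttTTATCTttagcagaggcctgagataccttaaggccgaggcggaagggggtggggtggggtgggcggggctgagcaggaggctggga
Uros, first start: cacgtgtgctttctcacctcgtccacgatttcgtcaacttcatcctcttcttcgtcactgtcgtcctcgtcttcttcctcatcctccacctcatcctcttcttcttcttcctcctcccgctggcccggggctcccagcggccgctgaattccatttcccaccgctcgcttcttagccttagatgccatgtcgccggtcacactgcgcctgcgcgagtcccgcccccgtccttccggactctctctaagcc
Uros, second start: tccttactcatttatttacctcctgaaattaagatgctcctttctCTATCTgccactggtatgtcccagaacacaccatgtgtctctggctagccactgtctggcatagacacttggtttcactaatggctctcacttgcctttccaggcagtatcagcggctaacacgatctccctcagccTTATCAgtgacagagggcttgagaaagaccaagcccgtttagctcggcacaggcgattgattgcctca
Cpox: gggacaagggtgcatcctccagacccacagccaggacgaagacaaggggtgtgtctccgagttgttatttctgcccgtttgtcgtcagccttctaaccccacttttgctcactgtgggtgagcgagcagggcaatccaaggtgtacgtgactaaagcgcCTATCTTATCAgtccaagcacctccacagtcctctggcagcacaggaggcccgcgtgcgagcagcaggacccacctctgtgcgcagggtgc

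Levels below are the log2 intensity of a probe over the median of all probes of its array, and differences are on the same log2 scale. A gene was called when limma, fitted to the 12 arrays of a comparison, gave an unadjusted p under 0.001 together with an adjusted p (Benjamini-Hochberg, over all genes tested) under 0.05. Between 15581 and 21300 of the 39429 probes per array were well above background. The counts were 19496 to 20751 in controls, 16550 to 19316 after x-rays and 16455 to 18995 after neutrons. The mixed fields spanned 15581 to 21300. The array median, the reference of every difference, thus lies near the limit of background. The median intensity of an array lay between 4.33 and 4.70 (log2) in controls and between 2.77 and 5.30 over all exposed arrays, and the 0.75 Gy neutron arrays ranged from 3.22 to 3.93. Arrays were scanned in 4 sessions. Controls and x-ray arrays shared the first session (5 of each), 5% and 15% arrays the second, all 25% and neutron arrays the third, and 1 array each of the control, x-ray, 5% and 15% groups the fourth. The 25% and neutron groups shared no session or slide with the controls or x-rays, so that session and group cannot be told apart in those comparisons.

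Most members were higher than in controls after every exposure. After x-rays 7 of 9 rose (all but Alas2 and Slc25a38), where 12.9% of all genes tested were called higher. After the 5% mixed field 6 rose against a background of 9.01%, after 15% 8 against 12.6%, after 25% 5 against 10.9%, and after 0.75 Gy neutrons 7 against 16.1%. The 7 after neutrons include Alas2, whose spot was saturated on all 6 neutron arrays. On the scale of array medians no member was called lower than in controls in any of these 5 comparisons, which share their control arrays. The median difference of the 9 members was 1.84 after x-rays, 1.29 after 5%, 1.41 after 15%, 1.45 after 25% and 1.38 after neutrons, while the median of all genes tested lay between -0.12 and -0.02. Urod, Cpox, Ppox and Slc25a37 were called in all 5 comparisons. These directions are relative to the array median. With arrays centred on spike-in RNA, the median of all genes shifted by -1.20, -1.51, -1.36, -1.0 and -2.07 in the same order, the 7 members tested there lay above that shift in every comparison, and the direction turned against 0 for Slc25a38 after x-rays, for Uros, Ppox and Slc25a38 after 5%, for Uros after 15%, for Slc25a38 after 25%, and for Uros, Urod, Ppox, Slc25a37 and Slc25a38 after neutrons. Alad, Uros, Ppox and Slc25a38 were called lower after neutrons with spike-in centring. With normexp background correction no member was called after x-rays, 5% or neutrons, and 2 were called after 15% and 25%.

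**Figure D1:**
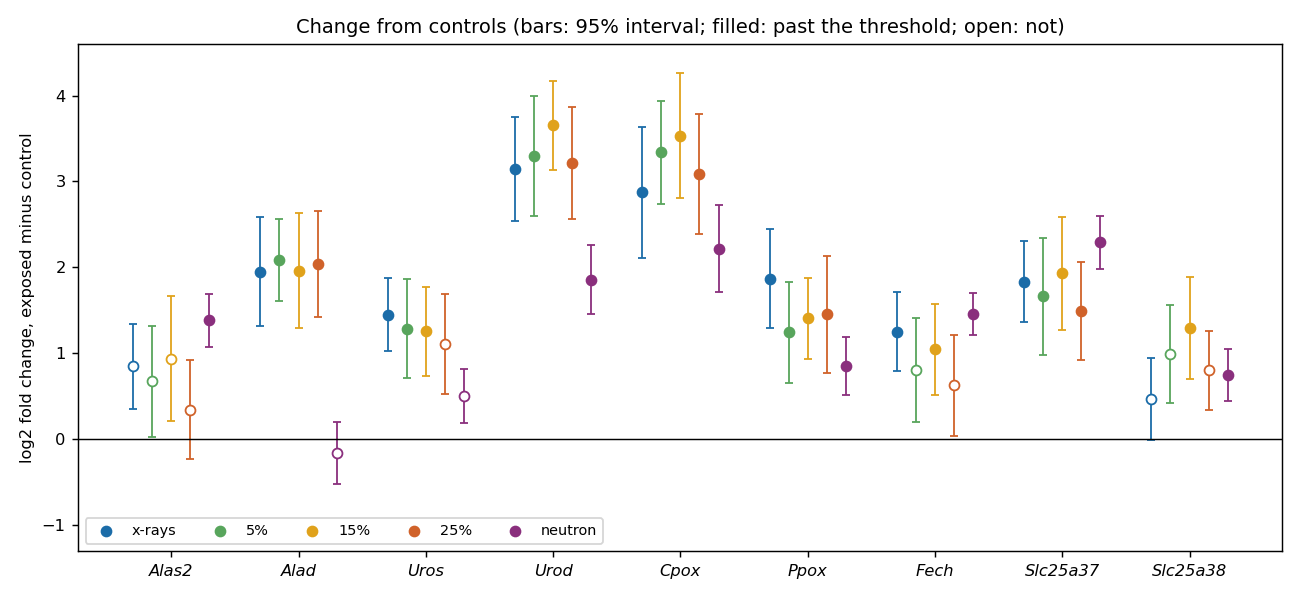
Log2 difference of each of the 9 genes from controls (vertical axis) after 5 exposures (colours), with 95% intervals from limma, n = 6 mice per group; filled points passed the threshold and open points did not. On the scale of array medians Urod and Cpox show the largest differences of the 9 genes after x-rays (3.15 and 2.87), and Alad after 0.75 Gy neutrons lies at -0.16; with spike-in centring 5 of the 7 genes tested turn below 0 after neutrons that are above 0 here.

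Alas2, whose product sets the pace of erythroid heme synthesis, was called higher only after 0.75 Gy neutrons. Its level ran from 14.24 to 14.67 in controls (median 14.36) and from 15.39 to 16.13 after neutrons (median 15.78), without overlap. After x-rays it ran from 14.61 to 16.07 (median 15.24), and the lowest array lay below the highest control. The 5% group spread from 13.93 to 15.81 (median 15.25), the 15% group from 14.10 to 16.27 (median 15.36) and the 25% group from 14.10 to 15.73 (median 14.61), so that each overlapped the controls. The probe was saturated on 17 of 36 arrays, that is on 1 array each of the control, x-ray and 5% groups, 3 of the 15% arrays, 5 of the 25% arrays and all 6 neutron arrays. Where the spot was saturated, its level over the array median follows that median and is capped. Against the 5 controls that were not saturated, the level over the array median after neutrons was at least 2.71-fold higher. Limma on all 12 arrays gave an adjusted p of 4.0e-06. With all 6 neutron spots saturated, the spread after neutrons behind this p is that of the array medians and not of Alas2. With normexp background correction the difference after neutrons was -0.376 and was not called. As scanned, the log2 intensity of Alas2 averaged 18.90 in controls and 19.35 after neutrons, while the array median averaged 4.5 and 3.57. The differences not called, all of which include saturated arrays and so do not give the size of a change, were 0.85 ± 0.23 (SE) after x-rays, 0.67 ± 0.30 after 5%, 0.94 ± 0.34 after 15% and 0.35 ± 0.27 after 25%.

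**Figure D2:**
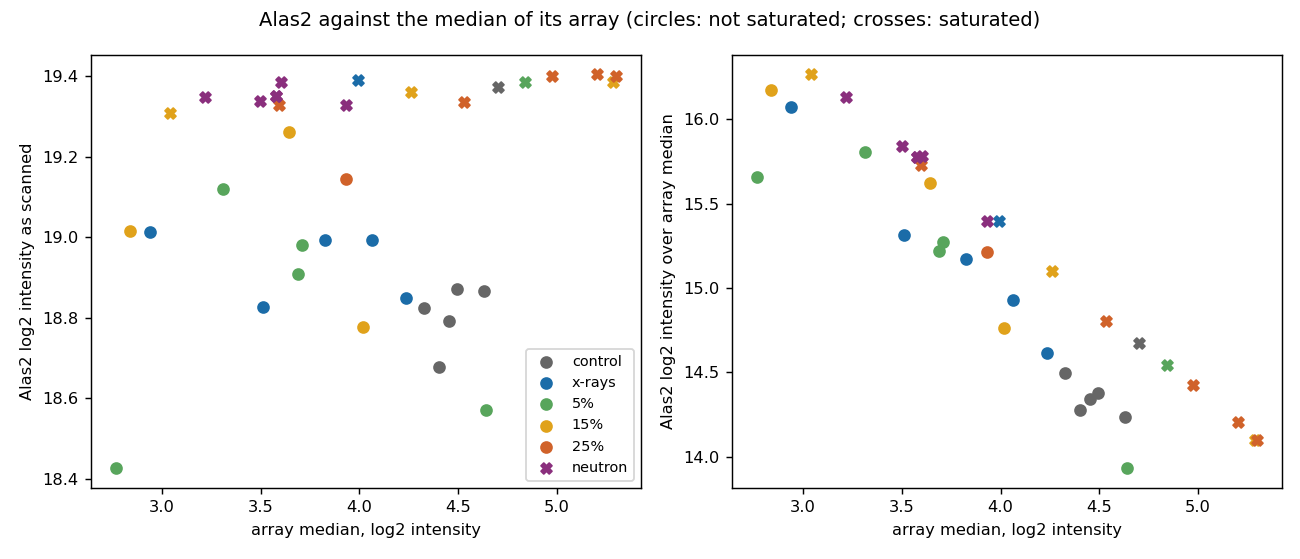
Alas2 on each of 36 arrays against the median log2 intensity of that array (horizontal axes), as scanned on the left and over the array median on the right; crosses mark saturated spots and colours mark groups. As scanned, all 6 neutron arrays lie between 19.33 and 19.39, so that their levels over the array median, from 15.39 to 16.13, differ mainly by that median.

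Alad, the cytosolic enzyme that joins a pair of molecules of aminolevulinic acid, rose after x-rays and every mixed field and did not pass the test after neutrons. The first probe ran from 3.64 to 4.57 in controls (median 3.73), and the highest of these, replicate 1, stood apart from the other 5. It ran from 4.78 to 6.50 after x-rays (median 6.03), from 5.64 to 6.22 after 5% (median 5.96), from 4.75 to 6.76 after 15% (median 5.90) and from 5.16 to 6.97 after 25% (median 5.81). None of these 24 arrays overlapped the controls. After neutrons the level ran from 3.55 to 3.90 (median 3.63), inside the control range but for the lowest 3 arrays. The increases were 1.95 ± 0.29 (SE) after x-rays, 2.08 ± 0.22 after 5%, 1.96 ± 0.31 after 15% and 2.04 ± 0.29 after 25%, close to 4-fold. The difference after neutrons was -0.16 with a 95% interval from -0.52 to 0.20. Its sign turned with the scaling, at 0.11 on the 75th percentile, 0.03 on probes well above background, 0.12 after quantile normalization, and -2.05, called lower, with spike-in centring.

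Uros closes the ring of the first tetrapyrrole, uroporphyrinogen III. Its first probe ran from 3.92 to 4.47 in controls (median 4.21) and from 5.15 to 5.94 after x-rays (median 5.79). It ran from 4.88 to 6.29 after 5% (median 5.41), from 4.82 to 6.01 after 15% (median 5.59) and from 4.86 to 6.45 after 25% (median 5.00). All of these arrays lay above the controls, and the increases of 1.45 ± 0.20 (SE), 1.29 ± 0.27 and 1.25 ± 0.24 after x-rays, 5% and 15% were called. The difference of 1.11 ± 0.27 after 25% missed the threshold, at an adjusted p of 0.0043 (limma) and an unadjusted p of 0.0011. After neutrons the first probe ran from 4.40 to 5.09 (median 4.69), with a difference of 0.51 ± 0.15 that was not called (adjusted p = 0.0087, limma).

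Urod, which removes carboxyl groups to give coproporphyrinogen, changed most among the 9 genes after x-rays, 15% and 25%. It ran from 7.68 to 8.53 in controls (median 8.0) and from 10.45 to 11.72 after x-rays (median 11.42). It ran from 10.09 to 12.12 after 5% (median 11.61), from 11.03 to 12.30 after 15% (median 11.72) and from 10.58 to 12.57 after 25% (median 11.07). The neutron arrays ran from 9.45 to 10.27 (median 9.93), above all controls and below all x-ray, 15% and 25% arrays. The lowest 5% array (10.09) lay inside their range. The increases were 3.15 ± 0.28 (SE), 3.30 ± 0.33, 3.66 ± 0.24, 3.22 ± 0.30 and 1.86 ± 0.19, that is 8.86-, 9.82-, 12.6-, 9.31- and 3.62-fold in the order x-rays, 5%, 15%, 25% and neutrons.

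Of the mitochondrial enzymes, Cpox showed the largest increase. Cpox, which oxidizes coproporphyrinogen, ran from 2.67 to 4.24 in controls (median 3.51) and from 5.26 to 7.10 after x-rays (median 6.51). It ran from 6.19 to 7.23 after 5% (median 6.95), from 6.05 to 8.11 after 15% (median 7.04), from 6.03 to 7.89 after 25% (median 6.33) and from 5.28 to 6.07 after neutrons (median 5.72). No exposed array overlapped the controls, and the increases were 7.33-, 10.1-, 11.6-, 8.50- and 4.65-fold in the same order. Ppox, the next oxidase, ran from 4.27 to 4.90 in controls and rose by 1.87 ± 0.27 (SE) after x-rays, 1.25 ± 0.27 after 5%, 1.41 ± 0.22 after 15%, 1.45 ± 0.32 after 25% and 0.85 ± 0.16 after neutrons. Only 1 of the 5% arrays (4.82) overlapped the controls. Fech, the ferrochelatase, ran from 13.34 to 13.58 in controls (median 13.44), from 14.09 to 15.42 after x-rays (median 14.69) and from 14.74 to 15.06 after neutrons (median 14.89). It rose by 1.25 ± 0.22 (SE) after x-rays, 1.05 ± 0.25 after 15% and 1.46 ± 0.11 after neutrons, and the differences of 0.81 ± 0.28 after 5% and 0.63 ± 0.27 after 25%, where arrays overlapped the controls, did not pass. The 15% call of Fech was lost in 10 of the 12 fits that left out 1 array, with differences between 0.90 and 1.18, and the 5% difference passed in 1 of 12, without 5% replicate 3, its lowest array (1.04). The calls of Ppox were lost in 6 of 12 such fits for 5% and in 4 of 12 for 25%.

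The carrier Slc25a37, the importer of mitochondrial iron, rose after all 5 exposures. Its first probe ran from 12.63 to 13.28 in controls (median 12.92) and from 14.22 to 15.33 after x-rays (median 14.79). It ran from 13.36 to 15.30 after 5% (median 14.80), from 13.85 to 15.70 after 15% (median 14.80), from 13.92 to 15.44 after 25% (median 14.34) and from 15.12 to 15.30 after neutrons (median 15.26). None of the 30 exposed arrays overlapped the controls. The increases were 3.57-, 3.16-, 3.81-, 2.82- and 4.89-fold in the same order. Slc25a38, the carrier on the glycine side, ran from 5.14 to 5.75 in controls and rose by 1.30 ± 0.28 (SE) after 15% and 0.75 ± 0.14 after neutrons. Its differences of 0.47 ± 0.22 after x-rays, 0.99 ± 0.26 after 5% and 0.80 ± 0.21 after 25% were not called, and the 15% call was lost in 7 of the 12 fits that left out 1 array.

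**Figure D3:**
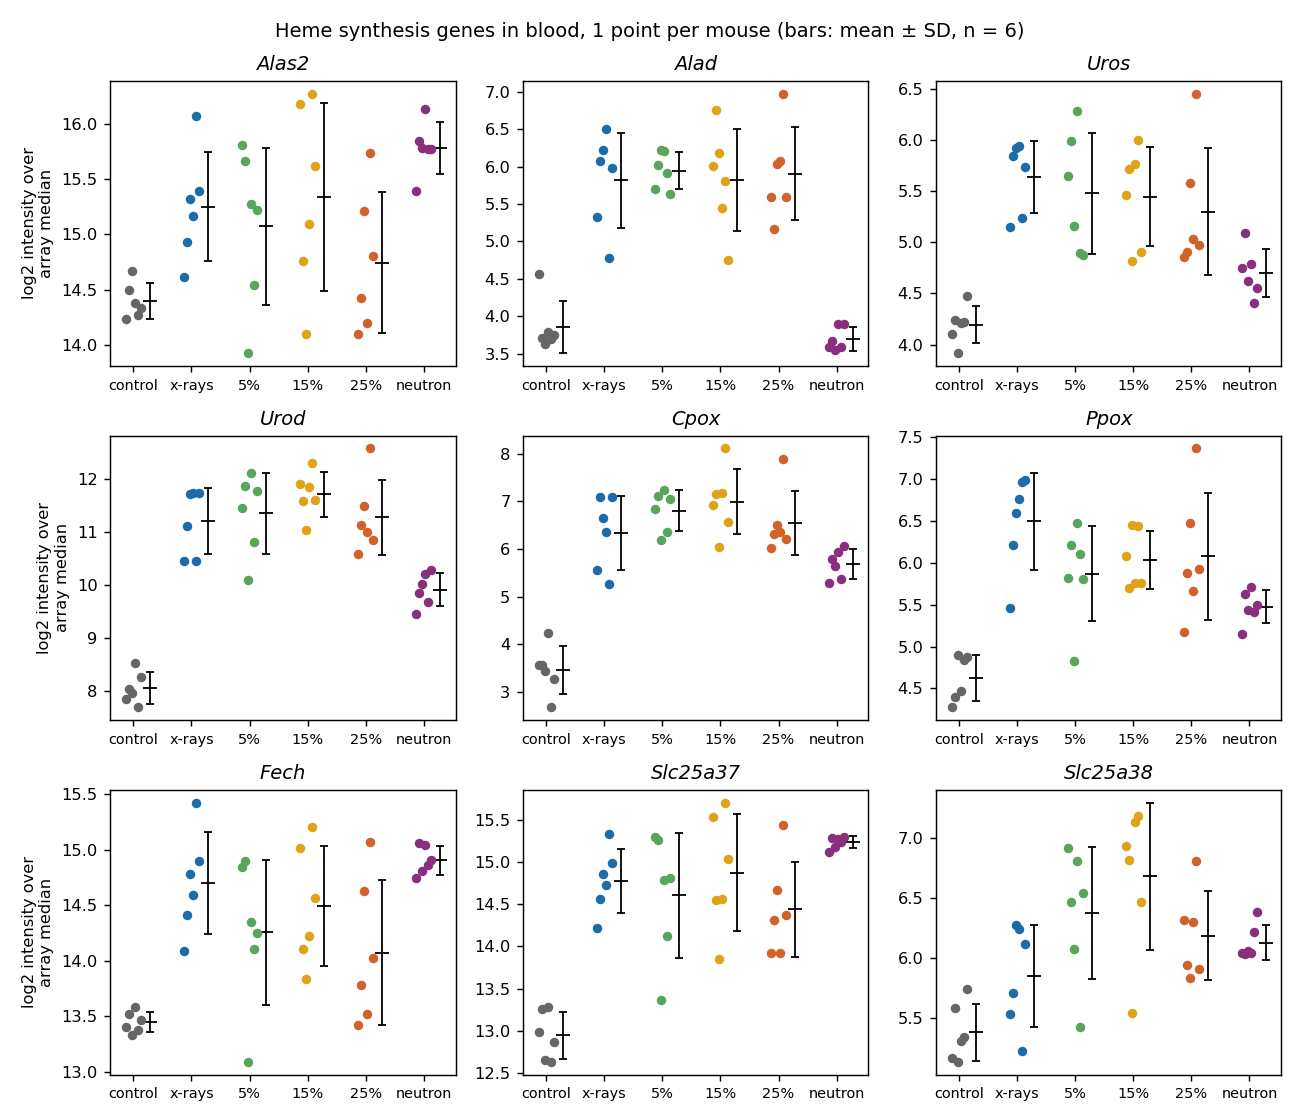
Level of the 9 genes in each of the 36 mice (points), as log2 intensity over the array median, by group; bars are the mean and SD, n = 6. Alad after neutrons (3.55 to 3.90) lies with the controls, Urod after neutrons (9.45 to 10.27) lies between controls and x-rays, and Slc25a37 after neutrons (15.12 to 15.30) lies above all controls. On spike-in centring the mean differences of Alad, Urod and Slc25a37 after neutrons are -2.05, -0.04 and -0.07.

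For the comparisons with controls within scan sessions, x-rays gave differences from 0.37 to 3.02 over the 9 genes in the session with 5 arrays of each group. In the session with 1 of each, they ran from 0.98 to 3.77 over the 8 members other than Alas2. The differences after 5% and 15% could be set against a control in 1 session only, with 1 array of each group, where the 8 members other than Alas2 were higher (0.29 to 2.91 after 5%, 0.41 to 3.07 after 15%). Alas2 was saturated on all 4 arrays of that session and gives no comparison there. With the session as a block, 0 members were called after 5% and 1 after 15%, and with the slide as a block 4 were called after x-rays and 0 after 5% and 15%. These blocked fits are thin for 5% and 15%, since their information comes from that 1 pair of arrays.

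The probes of a gene differed in how they moved. The second Uros probe, annotated to another transcript than the first, ran from -0.12 to 0.57 in controls (median 0.16) and from 2.38 to 2.74 after x-rays (median 2.60). After neutrons it ran from 2.74 to 4.65 (median 3.03), so that it was above every control on every neutron array. Tested alone among 21484 probes, it rose by 2.38 ± 0.17 (SE) after x-rays, 2.39 ± 0.42 after 5%, 3.04 ± 0.34 after 15%, 2.46 ± 0.31 after 25% and 3.09 ± 0.29 after neutrons, where the first probe differed by 0.51. The first Uros probe passed after 25% in that test (unadjusted p of 0.00089), which it missed in the test per gene. The second Alad probe was well above background on 11 of 36 arrays, ran from -0.25 to 0.75 in controls and was called in no comparison, with differences from controls between -0.71 and 0.76. The second Slc25a37 probe ran from 6.54 to 7.80 in controls and from 8.58 to 9.22 after neutrons, and rose by 2.12 after x-rays, 1.92 after 5%, 2.01 after 15% and 1.82 after neutrons. Its difference of 1.37 after 25% was not called (adjusted p = 0.0054, limma).

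**Figure D4:**
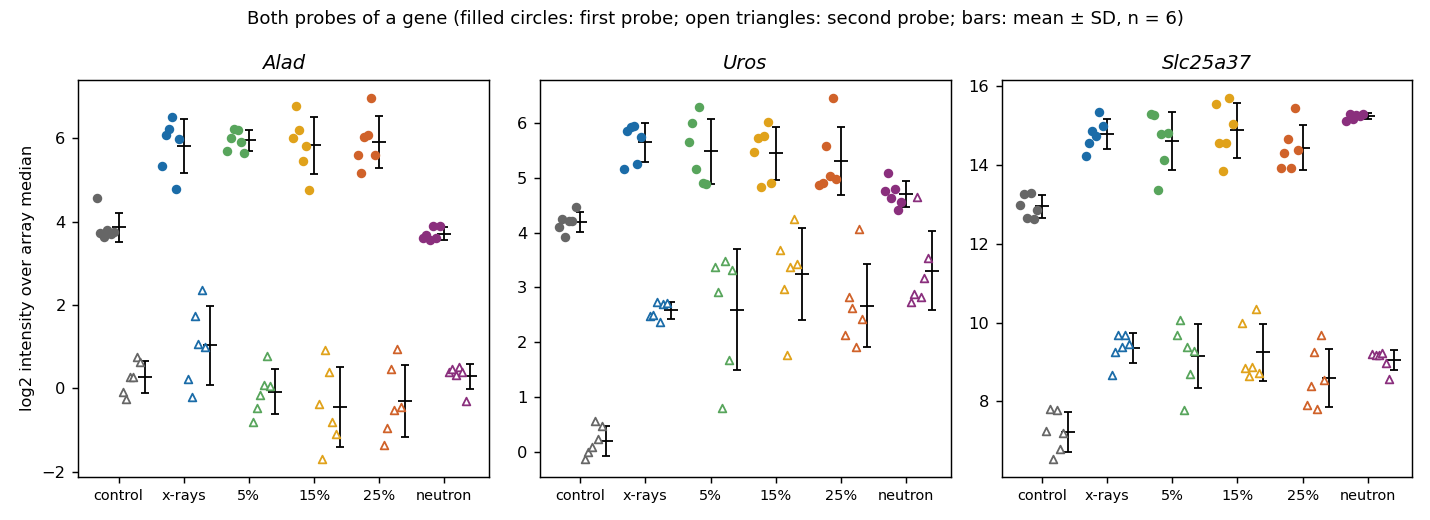
Levels of both probes of Alad, Uros and Slc25a37 on each array (filled circles first probe, open triangles second probe) as log2 intensity over the array median, by group; bars are the mean and SD, n = 6. On this scale the second Uros probe lies between 2.74 and 4.65 after neutrons and between -0.12 and 0.57 in controls, while the first lies between 4.40 and 5.09 and between 3.92 and 4.47; levels of different probes are not comparable with each other.

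Against x-rays, no member differed after the 5% (0% of all genes called in either direction), 15% (4.13%) or 25% (2.58%) mixed fields. At an unadjusted p under 0.05, 0 members differed after 5%, 1 after 15% (Slc25a38, 0.83) and 0 after 25%. In the 1 scan session that held x-rays, 5% and 15%, with 1 array of each, the 8 members other than the saturated Alas2 were lower than after x-rays by -0.07 to -0.92 after 5%, and after 15% they ran from -1.14 to 0.20, with Alad the 1 that was higher. The 25% group shared no session with x-rays. The intervals leave room for differences, since over the 9 genes the lowest and highest bounds of the 95% intervals were -1.36 and 1.24 for 5%, -1.11 and 1.53 for 15%, and -1.33 and 1.06 for 25%. After 0.75 Gy neutrons 3 members were lower than after x-rays, where 6.35% of all genes were called lower. Alad was lower by -2.11 ± 0.27 (SE), 4.32-fold (adjusted p = 0.00017, limma), Urod by -1.29 ± 0.28, 2.45-fold (adjusted p = 0.0048), and Uros by -0.94 ± 0.21, 1.92-fold (adjusted p = 0.0047), each with all 6 neutron arrays below all 6 x-ray arrays. The Uros difference concerned its first probe, and the second differed by 0.72 in the opposite direction without being called. Ppox (-1.02) and Cpox (-0.66) did not pass, and Alas2 (0.53), Fech (0.21), Slc25a37 (0.45) and Slc25a38 (0.28) did not pass either. The Slc25a37 value is that of its first probe, and the second differed by -0.30, in the opposite direction, without being called. The call of Alad held when each array was left out in turn, while leaving out x-ray replicate 3, 4 or 6 or neutron replicate 1, 3 or 5 left 1 member called. With normexp background correction none of the 9 was called, and the difference of Alad was -1.91.

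Neutrons at 0.75 Gy were also set against the 25% mixed field, whose arrays were scanned in the same session. In the dose protocol of the paper both groups received 0.75 Gy of neutrons, and the 25% field added x-rays. Alad was lower by -2.20 ± 0.27 (SE), 4.6-fold (adjusted p = 0.00011, limma), and Urod by -1.36 ± 0.30, 2.57-fold (adjusted p = 0.0057), where 7.33% of all genes were called lower. All 6 neutron arrays lay below all 6 arrays of the 25% group for both genes. Over the 9 genes, the remaining differences ran from -0.87 for Cpox to 1.04 for Alas2, which was saturated on most of these arrays, and were not called. The array of 25% replicate 5 was the highest of its group for all 9 genes. Without it 5 members were called, Alad (-1.99) and Urod (-1.10) lower and Fech (1.03), Slc25a37 (0.99) and Alas2 higher after neutrons. The Alas2 spot was saturated on all 6 neutron arrays and on 5 of the 6 arrays of the 25% group, where it averaged 19.35 and 19.34 as scanned, so that its call follows the array medians. Over all 6 arrays as scanned, Fech averaged 18.47 after neutrons and 18.66 after 25%. The first Slc25a37 probe averaged 18.80 and 19.03. Both were thus lower after neutrons as scanned, and their higher levels rest on the array medians, which averaged 3.57 and 4.59. Leaving out 25% replicate 2 or 3, or neutron replicate 1, 2, 3 or 5, left 1 member called, and with the slide as a block Alad (-2.65) was called and Urod (-2.07) was not. With both probes of Alad averaged, its difference was -0.80 and was not called.

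The other genes of heme metabolism were taken from 4 lists of 28 genes, 21 of which were tested. Among the 12 tested genes of synthesis and its helpers, 6 rose and 0 fell after x-rays, 4 and 0 after 5%, 6 and 0 after 15%, 4 and 0 after 25%, and 4 rose and 3 fell after neutrons, where 20.4% of all genes tested were called lower. As background for all 4 lists, 12.9, 9.01, 12.6, 10.9 and 16.1% of all genes tested were called higher in that order. Alas1, the housekeeping form of the first enzyme, had 2 probes that passed the filters, of which only the brighter is given. Alas1 was called in none of the 5, with differences of -0.52 after x-rays, 1.06 after 5%, 0.57 after 15%, 0.45 after 25% and 0.01 after neutrons. Its 5% arrays spread widely, from 5.31 to 9.20 (median 5.92), against 5.20 to 5.93 in controls (median 5.33). Glrx5, needed for iron-sulfur clusters, rose by 2.12 after x-rays and 2.53 after neutrons, and Iscu, the scaffold of these clusters, rose by 1.24 and 1.76.

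Of the genes of heme breakdown, export and transport 5 were tested, of which 3 rose after x-rays, 2 after 5%, 3 after 15%, 3 after 25% and 2 after neutrons. Slc48a1, a heme transporter, rose by 1.73 ± 0.17 (SE) after x-rays and 1.91 ± 0.11 after neutrons, and Blvrb, a biliverdin reductase, rose by 2.15 ± 0.21 and 2.02 ± 0.17. Of 3 tested genes of heme sensing and binding, 2 rose after x-rays and each mixed field and 1 after neutrons. Eif2ak1, the heme-regulated kinase of translation initiation, rose by 2.25 ± 0.22 (SE) after x-rays and 1.48 ± 0.15 after neutrons. Hebp1, a heme-binding protein, rose by 2.21 ± 0.31 after x-rays and differed by 0.89 ± 0.23 after neutrons without being called. Cox15, which makes heme a, was the 1 tested gene of the last list and was not called. Against x-rays, 0 of these 21 genes were called after the mixed fields. Of all genes tested, 0% were called in either direction after 5%, 4.13% after 15% and 2.58% after 25%. After neutrons 6 of the 21 were lower than after x-rays, where 6.35% of all genes tested were called lower.

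Genes of red cell precursors moved with the members. Of 21 tested erythroid markers, which share no gene with the members, 18 rose after x-rays, 18 after 5%, 20 after 15%, 16 after 25% and 19 after neutrons, with medians of 2.16, 2.04, 2.47, 2.02 and 1.80. The log2 of their summed level ranged from 14.10 to 14.60 in controls, from 15.63 to 16.60 after x-rays, from 15.00 to 16.88 after 5%, from 15.47 to 17.22 after 15%, from 15.54 to 17.23 after 25% and from 16.31 to 16.58 after neutrons. Of 7 tested globin genes, 2 rose after x-rays, 2 after 5%, 3 after 15%, 2 after 25% and 7 after neutrons, in RNA from which globin transcripts had been reduced. Of 8 B-cell markers, 8 fell after x-rays and each mixed field and 7 after neutrons, with medians of -4.31 after x-rays and -1.29 after neutrons, and 0 of 5 NK-cell markers were called. Of 8 T-cell markers, 2 fell after x-rays, 5% and 15%, 1 after 25% and 0 after neutrons. Among all 15077 genes tested, 2554 were called lower after x-rays, 2117 after 5%, 2500 after 15%, 2097 after 25% and 3080 after neutrons. The shares called higher were 12.9, 9.01, 12.6, 10.9 and 16.1% in the same order. Of 8 neutrophil markers 3 rose in every comparison with controls and 1 fell after 15%, 25% and neutrons, of 4 monocyte markers 2 rose after neutrons and 0 after the other exposures, and of 7 platelet markers 3 rose after 15% and 25%, 1 after neutrons and 0 after x-rays and 5%. The log2 of the summed B-cell markers was 11.25 to 12.12 in controls, 5.75 to 9.31 after x-rays, 6.77 to 8.47 after 5%, 6.13 to 8.51 after 15%, 6.84 to 8.57 after 25% and 10.03 to 10.54 after neutrons. The part of red cell precursor number and of lymphocyte loss in the changes of the members was not tested.

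**Figure D5:**
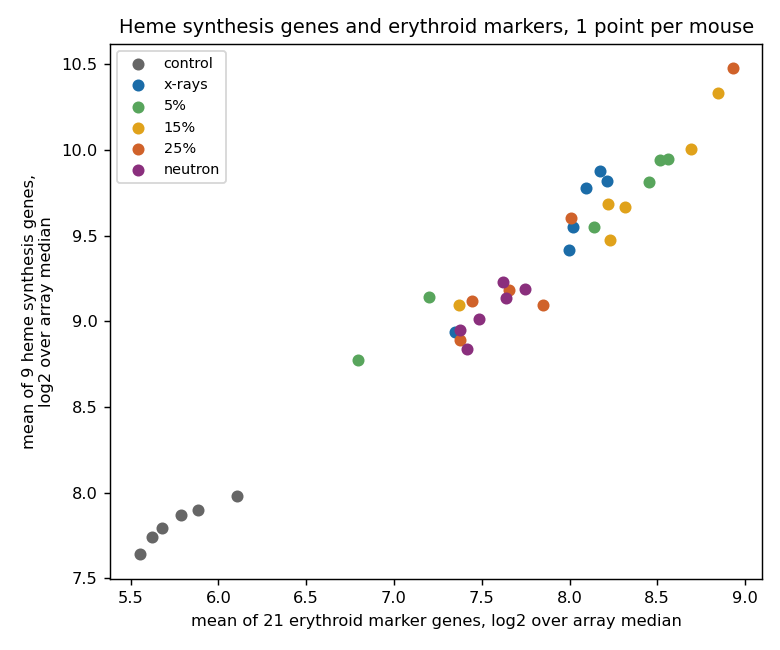
Mean level of the 9 heme synthesis genes (vertical axis) against the mean of 21 erythroid marker genes (horizontal axis), both as log2 intensity over the array median, 1 point per mouse and colours for groups. The controls lie at 7.64 to 7.98 for the members and 5.55 to 6.10 for the markers, below and to the left of all exposed mice, which lie at 8.77 to 10.48 and 6.79 to 8.93; points share the median of their array, and the members include Alas2, which was saturated on 17 arrays.

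Within groups, the members fell into patterns that are given as descriptions. Over the 36 arrays, with group means removed, Alas2 correlated with Fech (r = 0.95) and with Slc25a37 (r = 0.94), the 3 brightest of the genes, whose points share the array median and of which Alas2 was saturated on 17 arrays. Urod correlated with Cpox (r = 0.84), while Alad correlated with Alas2 at r = -0.09 and with Urod at r = 0.38. The 5 genes most like Alas2 by this measure among 15068 were Oaz1, Ftl1, Hba-a2, Rn18s and Tpt1 (r = 0.98 to 0.96), which all have very bright probes, saturated on 0, 12, 20, 5 and 4 arrays. This ranking is limited by the saturation of Alas2 and of these probes. Those most like the mean of the 9 members included Atpif1, Pithd1, K230015D01Rik and Prdx2 (r = 0.95 to 0.93). Among single arrays, 15% replicate 5 was the highest of its group for 7 of the 9 genes and 15% replicate 3 the lowest for 7, 5% replicate 3 was the lowest for 6, and neutron replicate 1 was the lowest for 6.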

How the data were processed

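RNA from blood was hybridized to single-colour Agilent arrays. Per the file headers, the deposited intensities were corrected for background and spatial trends within each array by Feature Extraction (12.0.2 in the submitters' processing notes) and were not normalized between arrays. The values deposited for the series as a whole are log2 values that the authors had normalized and filtered (14243 rows, of which 10965 without an empty cell were used, as an alternative only).

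After the log2 transformation, uniform spots of the same probe were averaged and the median over 39429 probes was subtracted from each array. A probe was kept if it failed uniformity or background on under 25% of arrays (21484 kept) and if it differed from its own median by 1.5-fold or more on 20% or more of arrays (17954 kept). Where several probes of a gene were kept, the one with the highest mean signal was tested (15077 genes). Groups were compared with limma 3.58.1 (statmod 1.5.0 and version 1.17.8 of data.table, R 4.3.3) on 12 arrays, and Python 3.11.15 with numpy 2.4.6 and matplotlib 3.10.9 served for the figures. Scripts were tested on simulated data. Each array is a separate mouse, and no pair of arrays held identical values. The number of arrays limits the precision.

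The members, gene lists and tests were chosen with earlier results of these data known. Named with values were the 9 members, Alas1, the 2 genes of each other heme list with the smallest p after x-rays or neutrons among those called, and the 5 genes most correlated with Alas2 or with the mean of the members, and some genes that this rule takes are not reported here. The alternatives were other scalings (75th percentile, median of probes well above background, quantile, spike-in), normexp background correction with an offset of 50, stricter or no filters, the mean of the probes, 1 model over 36 arrays, blocks for replicate number, slide and scan session, the adjusted p alone, the values deposited for the series, and leaving out each array. Probes were placed by the array annotation (mm9), and no genome was used here.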

Additional observations from a re-analysis of the deposited data

Results flagged for a closer look

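Among 72 sets of 6 arrays (12 probes in 6 groups), 3 held an array that stood apart from the other 5 by Dixon's criterion, which chance alone meets in about 1 of 20 sets. The first Alad probe was at 4.57 in control replicate 1, the highest control. The second Alad probe was at -0.304 in neutron replicate 6, where it was not well above background. Cpox was at 7.89 in 25% replicate 5, the array that was the highest of its group for all 9 genes.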

How the results depend on the processing

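Background correction, scaling and, for 5% and 15%, the slide and session blocks bore most on the results. The numbers of members called against controls, 7, 6, 8, 5 and 7 after x-rays, 5%, 15%, 25% and neutrons, became 2, 2, 2, 2 and 4 with spike-in centring, where Urod and Cpox were the 2 called higher after x-rays and the mixed fields and all 4 called after neutrons were lower (Alad, Uros, Ppox and Slc25a38). With normexp they became 0, 0, 2, 2 and 0. Alas2 and Fech did not pass the fold filter with spike-in centring and have no value there. Over all genes, 1938 were called higher and 2554 lower after x-rays, against 302 and 7007 with spike-in centring, 2744 and 1650 on the 75th percentile and 28 and 362 with normexp, and after neutrons 2429 and 3080, against 80 and 13607, 3494 and 2126, and 2 and 354. Signs turned with spike-in centring for Slc25a38 after x-rays (-0.508), 5% (-0.379), 25% (-0.0562) and neutrons (-1.15), for Uros after 5% (-0.0818), 15% (-0.0209) and neutrons (-1.39), for Ppox after 5% (-0.124) and neutrons (-1.05), and for Urod (-0.0379) and Slc25a37 (-0.0737) after neutrons. With normexp they turned for Alas2 after x-rays (-0.0227), 5% (-1.41), 25% (-0.379) and neutrons (-0.376), for Slc25a38 after x-rays (-0.36), 5% (-0.82) and neutrons (-0.763), for Uros after 5% (-0.247) and neutrons (-0.643), for Ppox after 5% (-0.401) and neutrons (-0.551), for Fech after 5% (-1.3), 25% (-0.0439) and neutrons (-0.307), and for Slc25a37 after 5% (-0.415). Alad after neutrons turned from -0.16 to 0.108 on the 75th percentile, 0.03 on probes well above background and 0.116 with quantile normalization. Slide blocks left 4 members after x-rays and 0 after 5% and 15%, session blocks 0 after 5% and 1 after 15%, and both turned Alas2, to -0.126 after 5% and -0.571 after 15%, values that rest on 1 array per group with a saturated spot and so reflect the array medians. Between neutrons and x-rays, 3 members became 6 with spike-in centring and 0 with normexp, and Uros read 0.467 in the deposited table, which holds its second probe. Between neutrons and 25%, 2 became 5 with spike-in centring, 6 by the adjusted p alone, and 1 with the 75th percentile, the probes well above background, normexp, the mean of probes, or the slide block. The cause of these changes was not tested, except that the Uros value comes from the other probe and the blocked Alas2 values from saturated spots. Leaving out each array gave 7 to 8, 5 to 7, 6 to 8, 4 to 6 and 7 members against controls, 1 to 4 between neutrons and x-rays, and 1 to 5 between neutrons and 25%. Against x-rays, 5%, 15% and 25% had 0 members called in every alternative run.

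Replicate numbers did not pair the samples (mean correlation of deviations 0.037 over 90 same-number pairs, lowest -0.745). With the replicate block the counts were 7, 4, 6, 5 and 7 against controls, 2 between neutrons and x-rays, and 1 between neutrons and 25%. For single genes, 1039 values under an alternative kept direction and side of the threshold, 141 lost the call, 33 gained one and 34 turned sign. Saturation limits Alas2 at the top of the scale and background limits the second Alad probe at the bottom.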
